A study of Mus musculus with 12 samples.

Results

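The H3K4 methyltransferase core was taken as 10 genes of the 15855 in the table: Ash2l, Wdr5, Rbbp5, Dpy30, Kmt2a, Kmt2c, Kmt2d, Setd1a, Setd1b and Men1, all found by symbol. Ash2l was chosen by its fold change and adjusted p for stroke against sham in these same samples, so its difference between the groups is described here without a test, and the other 9 genes were taken as its partners in the same complexes. RNA was sequenced from EpCAM+ epithelial cells sorted from the whole small intestine of wild-type C57BL6/J mice 24 h after surgery. The pMCAO group (n = 5) had permanent middle cerebral artery occlusion, a filament model of ischaemic stroke without reperfusion, and the sham group (n = 7) had the same neck surgery under the same ketamine and xylazine anaesthesia without the occlusion. By the methods the mice were young adult males, and the labels name every library a separate biological replicate. Both groups carried anaesthesia and surgery, so neither stands for an unoperated gut.

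Methylation of lysine 4 of histone H3 (H3K4) marks promoters and enhancers of active genes. In mammals it is laid down by the COMPASS family of complexes, in each of which one large catalytic subunit of the MLL or SET1 type sits on a shared core of WDR5, RBBP5, ASH2L and DPY30, the WRAD core, which is needed for full enzyme activity. KMT2A works mostly at promoters of developmental genes, KMT2C and KMT2D add monomethyl marks at enhancers, and SETD1A and SETD1B add most of the trimethyl mark at promoters; in the intestine, enhancer and promoter marks of this kind accompany the passage of cells from crypt to villus.

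Total counts per library ranged from 7418730 to 31925579, and all 10 genes were among the 14462 that passed the filter on low counts. Levels are CPM, read counts relative to the library's total, scaled with TMM factors, which correct library sizes for differences in composition. Libraries were put into 4 blocks by library number. The numbers come from the labels, but the split points came from an earlier analysis that had matched them to the authors' fit. The blocks are 58 to 61 (3 sham and 1 pMCAO), 62 to 65 (2 and 2), 66 to 68 (1 and 2) and 72 (sham 7 alone). Block 1 stood apart. Its 4 libraries detected 13386 to 14712 genes and the other 8 detected 15343 to 15766, and 2 mitochondrial ribosomal RNAs took between 34.8% and 54.5% of the counts in block 1 and between 14.6% and 35.2% elsewhere. The 6 epithelial markers were all present, with summed levels of 5159 to 11057 CPM in sham and 5304 to 12145 CPM in pMCAO libraries. The 6 lymphocyte markers summed to between 28.7 and 594 CPM in sham and between 54.8 and 399 CPM in pMCAO libraries. The 4 enterocyte markers summed to between 6120 and 11021 CPM in sham and between 7729 and 19528 CPM in pMCAO libraries. Of these, Sis (sucrase-isomaltase) differed by 0.74 on the log2 scale (SE 0.14, adjusted p = 0.0337, limma-voom with library block), under the fold threshold used here, and its part in the results below was not tested. Of the 6 stromal, 3 endothelial and 4 enteric neuron and glia markers, 1, 1 and 0 were in the table. Since RNA came from bulk sorted cells, fewer cells of a type and less RNA per cell cannot be told apart.

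Promoters of the large catalytic subunits Kmt2a, Kmt2c and Kmt2d are shown beside those of 2 core subunits with 1 annotated start each. They were picked after these catalytic genes were seen to vary together across libraries, as described below. Any link between promoter letters and levels was not tested. The lines hold 250 bases upstream of the start, 5′ to 3′ on the gene's strand, from RefSeq (GRCm38.p6), with capitals for any match to GGGCGG (the GC box bound by Sp factors), CCGGAAG (an ETS core), CCAAT or CACGTG (an E-box) on either strand. Of the 10 genes, 8 had an entry, and Ash2l and Setd1b had none.
Kmt2a chr9:44881290-44881539, minus strand: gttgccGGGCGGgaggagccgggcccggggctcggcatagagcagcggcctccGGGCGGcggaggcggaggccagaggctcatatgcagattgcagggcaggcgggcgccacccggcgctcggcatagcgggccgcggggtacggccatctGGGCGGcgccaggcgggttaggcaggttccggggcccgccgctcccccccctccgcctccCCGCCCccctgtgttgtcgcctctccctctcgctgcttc
Kmt2c chr5:25498784-25499033, minus strand: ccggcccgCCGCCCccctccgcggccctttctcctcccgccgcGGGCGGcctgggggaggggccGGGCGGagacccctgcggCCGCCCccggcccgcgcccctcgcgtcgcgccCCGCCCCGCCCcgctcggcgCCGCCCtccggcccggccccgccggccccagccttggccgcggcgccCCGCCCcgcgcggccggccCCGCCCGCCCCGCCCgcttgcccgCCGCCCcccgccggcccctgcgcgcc
Kmt2d chr15:98871206-98871455, minus strand: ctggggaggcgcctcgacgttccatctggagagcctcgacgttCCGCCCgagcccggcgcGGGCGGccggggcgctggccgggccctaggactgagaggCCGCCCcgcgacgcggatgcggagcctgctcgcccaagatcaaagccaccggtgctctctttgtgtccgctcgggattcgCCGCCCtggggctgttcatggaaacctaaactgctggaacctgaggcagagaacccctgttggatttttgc
Wdr5 chr2:27514897-27515146, plus strand: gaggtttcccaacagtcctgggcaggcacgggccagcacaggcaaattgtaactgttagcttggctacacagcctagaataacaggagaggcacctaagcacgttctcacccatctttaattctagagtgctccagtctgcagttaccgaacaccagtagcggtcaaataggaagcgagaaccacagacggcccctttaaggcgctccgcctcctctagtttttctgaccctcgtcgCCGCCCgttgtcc
Rbbp5 chr1:132477117-132477366, plus strand: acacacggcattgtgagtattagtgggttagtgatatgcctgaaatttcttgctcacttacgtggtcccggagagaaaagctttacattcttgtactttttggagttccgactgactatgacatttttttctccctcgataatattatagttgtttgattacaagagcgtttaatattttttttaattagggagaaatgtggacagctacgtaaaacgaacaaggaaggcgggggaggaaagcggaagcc
All of the capitals in these 5 lines belong to GC boxes. Their number was 12 in Kmt2c, 4 each in Kmt2a and Kmt2d, 1 in Wdr5 and 0 in Rbbp5, with overlapping matches counted apart, and 32.7% of 32851 mouse promoter entries of this length held at least 1. G and C made up 76.8% of the bases in Kmt2a, 91.6% in Kmt2c and 67.6% in Kmt2d, against 54.4% in Wdr5, 40% in Rbbp5 and a median of 52.4% over all entries. Among the genes with an entry that are not shown, Setd1a, also catalytic, had 0 GC boxes and 70.4% G and C. Men1 had 1 GC box and 52%, and Dpy30 had 0 and 40%. The matches describe the letters only.

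Ash2l encodes the core subunit that, with RBBP5, holds the catalytic SET domain in its active form. It lies on chromosome 8 from 25815996 to 25847694 (GRCm38, minus strand, ENSMUSG00000031575), and no exon of another gene overlaps it. In sham libraries 1 to 7 its level was 19, 16.6, 23.6, 14.6, 14.3, 26.9 and 34.8 CPM. In pMCAO libraries 1 to 5 it was 51.0, 37.4, 34.8, 49.9 and 53.0 CPM. The ranges touch at a single point, since sham 7, alone in its block, and pMCAO 3 had the same level to 3 digits, and the other 6 sham libraries lie below all 5 pMCAO libraries. The means were 21.4 ± 7.54 CPM in sham (SD, n = 7) and 45.2 ± 8.44 CPM in pMCAO mice (SD, n = 5). On the log2 scale the difference was 1.19 (SE 0.17) in the limma-voom fit with library block, in which sham 7 carries no information on the groups, and 1.08 (SE 0.24) with group alone. Within blocks 1, 2 and 3 it was 1.38, 1.31 and 0.93, and 30.3% of all genes tested likewise had 1 sign in these 3 blocks. Of the 10 genes only Ash2l passed the call rule (adjusted p at most 0.05 and absolute log2 fold change at least 1) in the fit with library block, which 47 genes, or 0.325% of all those tested, passed with Ash2l among them. That count is the ground on which it was chosen. With group alone it did not pass the rule, and 0 genes did by limma-voom, while 1219 (8.43%) had an unadjusted p under 0.05. Leaving out pMCAO 1, the one pMCAO library of block 1, also took it below the rule at a difference of 1.12.

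**Figure D1:**
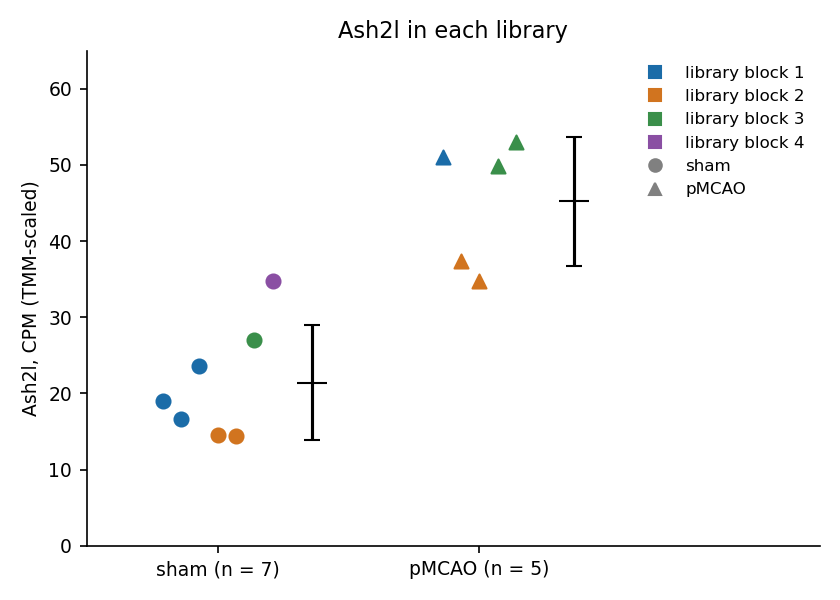
Level of Ash2l in CPM (TMM-scaled) in each of the 7 sham (circles) and 5 pMCAO libraries (triangles), coloured by library block, with the mean and SD of each group at its right. Only sham 7, at 34.8 CPM, reaches the lowest pMCAO library.

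None of the other 3 core subunits passed the call rule, and Dpy30 was the least settled of them. WDR5 is the scaffold that reads the H3 tail and docks the catalytic subunit. Wdr5 had 5.81, 2.07, 3.14, 3.71, 7.00, 5.61 and 7.36 CPM in sham 1 to 7 and 2.73, 4.86, 5.83, 4.64 and 4.15 CPM in pMCAO 1 to 5, with full overlap of the groups. RBBP5 bridges WDR5 and ASH2L. Rbbp5 lay between 8.44 and 19.4 CPM in sham and between 7.60 and 11.9 CPM in pMCAO libraries. The log2 differences were -0.26 (SE 0.31) for Wdr5 and -0.23 (SE 0.26) for Rbbp5, with adjusted p values over all genes of 0.777 and 0.766. Their 95% intervals were -0.92 to 0.40 and -0.78 to 0.33.

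DPY30 is the small dimer that binds ASH2L and stimulates methylation. Dpy30 had 2.71, 0.83, 0.483, 2.22, 1.27, 8.50 and 6.99 CPM in sham 1 to 7 and 0.854, 8.51, 7.33, 8.24 and 5.73 CPM in pMCAO 1 to 5. Low and high libraries occur in both groups, and the lowest value rests on 2 reads. Its log2 difference was 0.53 (SE 0.46, adjusted p = 0.674), with an interval of -0.45 to 1.51. Within blocks 1, 2 and 3 it was -0.27, 2.16 and -0.30, and the sham side of block 3 is sham 6 alone. Single libraries moved the value widely, to 1.72 without sham 6, 0.86 without pMCAO 5, 0.29 without pMCAO 2 and 0.067 without sham 5. It was 0.81 with group alone and 1.88 with a replicate block, and it passed the rule under none of the 22 alternatives. Taken within each library, Ash2l exceeded the mean of Wdr5, Rbbp5 and Dpy30 by 2.03 ± 0.63 log2 units in sham (n = 7, 1.48 to 3.21) and by 2.89 ± 0.85 in pMCAO mice (n = 5, 2.15 to 4.21), with overlapping ranges.

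Among the catalytic subunits, Kmt2d, the main H3K4 monomethyltransferase of enhancers, had 581, 592, 539, 283, 338, 241 and 242 CPM in sham 1 to 7 and 375, 218, 237, 239 and 279 CPM in pMCAO 1 to 5. On this TMM scale the 4 highest values are the 4 libraries of block 1, whichever their group. The TMM factors of block 1 (0.559 to 0.792) were all below those of the other libraries (0.993 to 1.52), and lower factors give higher levels. Relative to library totals alone, sham 3 lay below sham 6 in both Kmt2d and Kmt2c. Its log2 difference was -0.34 (SE 0.14), which did not pass in limma-voom (adjusted p = 0.312). It was among the 1843 genes, 12.7% of those tested, with a p under 0.05 before adjustment. Within blocks 1 and 2 the difference was -0.60 and -0.44, and within block 3 it was 0.10. Kmt2c, its paralog at enhancers, had 926, 778, 853, 382, 476, 402 and 366 CPM in sham and 663, 413, 382, 376 and 476 CPM in pMCAO libraries, again with block 1 on top, and a log2 difference of -0.14 (SE 0.13, adjusted p = 0.709). Its exons share 274 bases with Gm42585 on the other strand, and no source used here states whether counting used strand. Kmt2a, the founding MLL gene, ranged from 167 to 359.7 CPM in sham and from 150.1 to 202 CPM in pMCAO libraries, and its log2 difference was -0.30 (SE 0.16, adjusted p = 0.477).

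The SET1-type subunits were lower in level. Setd1b lay between 22.7 and 35.3 CPM in sham and between 21.9 and 32.9 CPM in pMCAO libraries, with the lowest coefficient of variation of the 10 over the sham libraries, 15.3%, where Dpy30 had the highest, 96.5%. Its log2 difference was -0.08 (SE 0.18, adjusted p = 0.906). Setd1a ranged from 2.31 to 16.6 CPM in sham and from 4.18 to 8.16 CPM in pMCAO libraries, and its log2 difference of 0.31 (SE 0.38, adjusted p = 0.787) turned to -0.10 without sham 6. Setd1a shares 3552 exon bases with Gm49388 and 9430064I24Rik, neither of them in the table. Men1 encodes menin, which tethers KMT2A and KMT2B to chromatin and is a tumour suppressor of endocrine tissues. It had 3.57 to 9.53 CPM in sham and 4.94 to 9.02 CPM in pMCAO libraries, and its log2 difference of -0.12 (SE 0.33, adjusted p = 0.923) changed sign with the fit, to 0.15 with group alone.

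Of the 9 genes other than Ash2l, 0 passed the call rule by limma-voom with library block and 1, Kmt2d, had an unadjusted p under 0.05. edgeR and DESeq2 also called 0 of the 9. Their median log2 difference was -0.14, against 0.01 over all 14462 genes. Genes of over 12000 exon bases, among them Kmt2a, Kmt2c, Kmt2d and Setd1b, had a median of -0.08 in this contrast (713 genes). The part of gene length in the median of the 9 was not tested. In a comparison within each library, the scaling factor enters only through the prior count of 2 added before taking logs. The log2 level of Ash2l minus the mean of Kmt2a, Kmt2c and Kmt2d was -4.14 ± 0.79 in sham mice (n = 7, from -4.92 to -2.84) and -2.63 ± 0.24 in pMCAO mice (n = 5, from -2.90 to -2.30). In every block that holds both groups, each pMCAO library had a higher value of this difference than each sham library. Because Ash2l was chosen for its own difference, these values describe it and are not separate evidence.

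**Figure D2:**
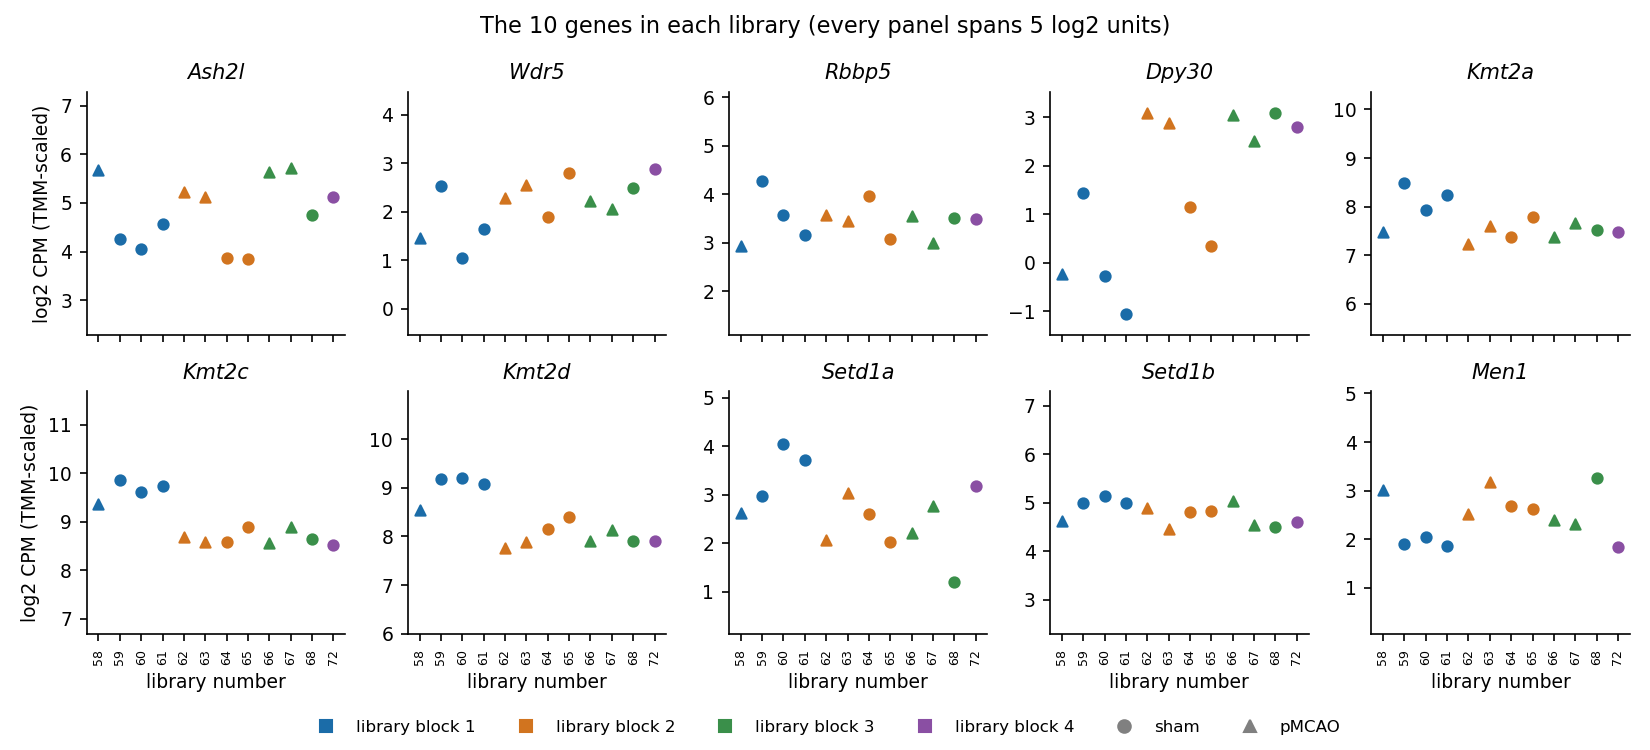
log2 CPM (TMM-scaled) of each of the 10 genes in the 12 libraries in order of library number, with circles for sham, triangles for pMCAO, colours for the 4 library blocks and the same span on every axis. Triangles lie above circles of their own colour in Ash2l, while in Kmt2c and Kmt2d the libraries of block 1 lie above the rest on this TMM scale.

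Levels between genes were compared per kilobase (kb) of the longest protein-coding transcript. In sham mice the order was Kmt2c (39.9 ± 16.3 CPM per kb), Kmt2d (20.3 ± 8.16), Kmt2a (14.3 ± 4.37), Ash2l (6.48 ± 2.28), Dpy30 (4.17 ± 4.02), Rbbp5 (3.66 ± 1.15), Setd1b (3.26 ± 0.50), Men1 (1.79 ± 0.75), Wdr5 (1.72 ± 0.70) and Setd1a (1.30 ± 0.77), each as mean and SD over 7 libraries. Every pair of neighbours in that order overlapped in range. In pMCAO mice Ash2l stood second, at 13.7 ± 2.55 CPM per kb (n = 5), behind Kmt2c at 30.9 ± 7.96, whose range it did not reach. It was level with Kmt2d at 13.6 ± 3.17 CPM per kb and overlapped Kmt2a at 10.8 ± 1.26. The places of Ash2l depend on the length used. Its longest coding transcript has 3307 bases and its merged exons 8969, and per kb of merged exon it stood at rank 7 of 10 in sham and 5 of 10 in pMCAO mice.

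A second contrast, which played no part in the choice of genes, compared the 4 later sham libraries (62 to 72) with the 3 earlier ones (58 to 61). The earlier libraries are all of block 1, and the split point came from an earlier analysis of these data. The p-values of this contrast therefore measure the spread between libraries and not between blocks. Kmt2c was lower in the later libraries, at 407 ± 48.8 CPM (n = 4) against 852 ± 73.8 CPM (n = 3), a log2 difference of -1.07 (SE 0.19, adjusted p = 0.0116, limma-voom). Kmt2d was lower as well, at 276 ± 45.7 against 571 ± 27.9 CPM (-1.06, SE 0.20, adjusted p = 0.0128). These 2 of the 10 passed the call rule, both downward, beside 1.90% of 13498 genes called lower, 3.62% called higher and 5.53% called in either direction. Kmt2a, at -0.69 (SE 0.20, adjusted p = 0.0555), and Setd1a, at -1.42 (SE 0.50, adjusted p = 0.0942), did not pass. Among the shared subunits, Dpy30 was at 1.64 (SE 1.18), Wdr5 at 0.56 (SE 0.55) and Rbbp5 at -0.40 (SE 0.36), and Men1 was at 0.81 (SE 0.57), none of them past the rule. Ash2l differed by 0.19 (SE 0.38, adjusted p = 0.775).

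The calls of Kmt2c and Kmt2d held in some settings and not in others. Both genes stayed called with median-ratio size factors (-1.09 and -1.08), with edgeR, with DESeq2 and without the filter on low counts. Scaling by library totals lost them. With library totals in place of TMM factors the differences were -0.25 and -0.24 while the median gene stood at 0.94, and with totals that leave out the mitochondrial ribosomal RNAs they were -0.72 and -0.71 with the median gene at 0.47, so that 0 of the 10 were called either way. In the latter case the adjusted p values, 0.0245 and 0.0264, still passed and the size did not. Under TMM the median gene stood at 0.13. Without sham 1, sham 2 or sham 3 neither was called, at -1.03, -1.14 and -1.07 for Kmt2c and -1.06, -1.04 and -1.10 for Kmt2d, and Kmt2d was also lost without sham 6 or sham 7, at -0.99 each.

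Some other measures moved with the same split of the sham libraries. The summed Paneth cell, proliferating cell, plasma and B cell, and myeloid cell markers overlapped between its sides. So did the enterocyte markers, at 9147 to 10915 CPM in the earlier and 6120 to 11021 CPM in the later libraries. The goblet cell markers summed to between 1766 and 3337 CPM in the earlier and between 8572 and 23259 CPM in the later libraries, the enteroendocrine markers to 213 to 269 and 1351 to 1486 CPM, the tuft cell markers to 8.09 to 34.3 and 124 to 597 CPM, and the lymphocyte markers to 28.7 to 116 and 139 to 594 CPM. The summed epithelial markers went the other way, from 9812 to 11057 CPM in the earlier and 5159 to 8484 CPM in the later libraries, although one of them, the keratin gene Krt18, was higher in the later libraries (236 to 579 CPM) than in the earlier ones (117 to 169 CPM). Among the lymphocyte markers only Ptprc had separate ranges. The others overlapped, with Cd8a, for one, at 8.36 CPM in sham 1 and 3.07 CPM in sham 5. Gene length moved with the split of the sham libraries too. Genes of over 12000 merged exon bases, among them Kmt2a, Kmt2c, Kmt2d and Setd1b, had a median log2 difference of -0.22 (697 genes), and the 2690 shortest genes one of 0.37. The part of each in the Kmt2c and Kmt2d result was not tested.

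**Figure D3:**
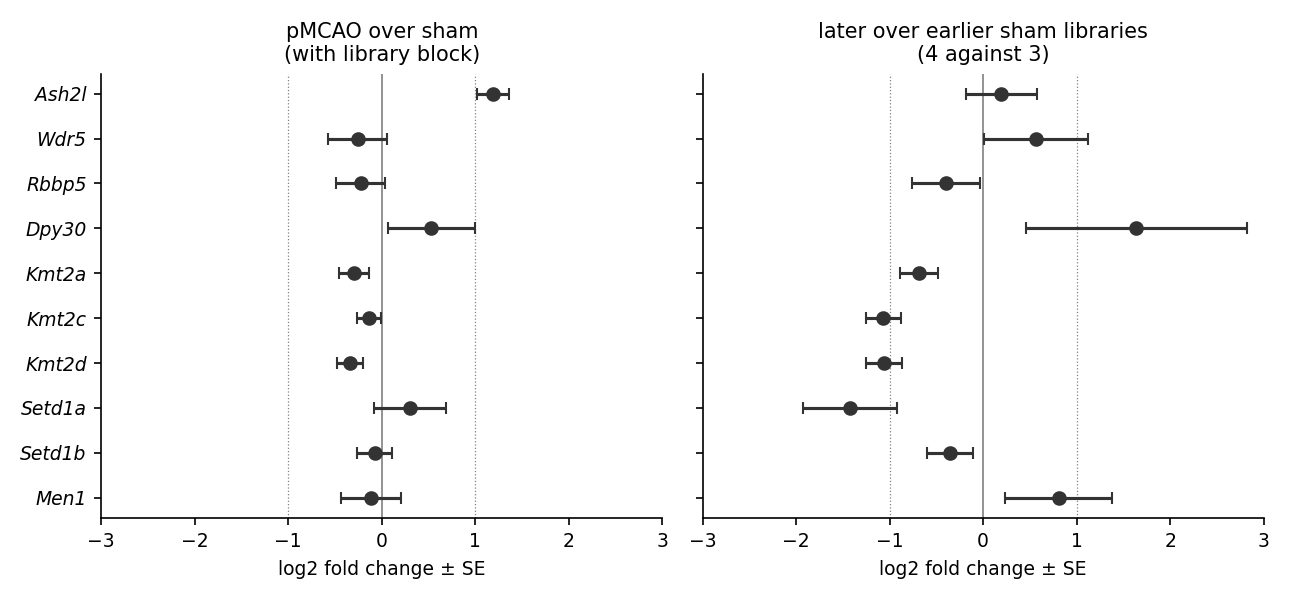
log2 fold change and SE of each of the 10 genes for pMCAO over sham with library block (left, 7 sham and 5 pMCAO libraries) and for later over earlier sham libraries (right, 4 and 3 libraries), with dotted lines at the call threshold of 1 in either direction. Ash2l lies at 1.19 on the left and 0.19 on the right, while Kmt2c and Kmt2d lie at -0.14 and -0.34 on the left and below -1 on the right.

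A difference taken within each library shows the same split, and the scaling factor enters it only through the prior count of 2 added before taking logs. That prior weighs most where reads are few, and Dpy30 had 4 reads in sham 2, 2 in sham 3 and 10 in pMCAO 1, all of block 1. The mean log2 CPM of Kmt2a, Kmt2c and Kmt2d exceeded that of Wdr5, Rbbp5 and Dpy30 by 7.14 ± 0.66 in the earlier (n = 3) and by 5.44 ± 0.63 in the later sham libraries (n = 4). With the pMCAO libraries included, the 4 libraries of block 1 ranged from 6.40 to 7.65 and the other 8 from 4.89 to 6.23, with no overlap. The value of pMCAO 1, at 7.00, falls among the sham libraries of its block. The 3 catalytic genes also followed each other from library to library: over the 12 libraries Pearson's r was 0.96 between Kmt2c and Kmt2d, 0.86 between Kmt2a and Kmt2d and 0.85 between Kmt2a and Kmt2c, and it was 0.74, 0.77 and 0.84 over the 11 libraries of blocks 1 to 3 after centring on block means. These libraries share depth and composition effects, so the coefficients are descriptions.

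**Figure D4:**
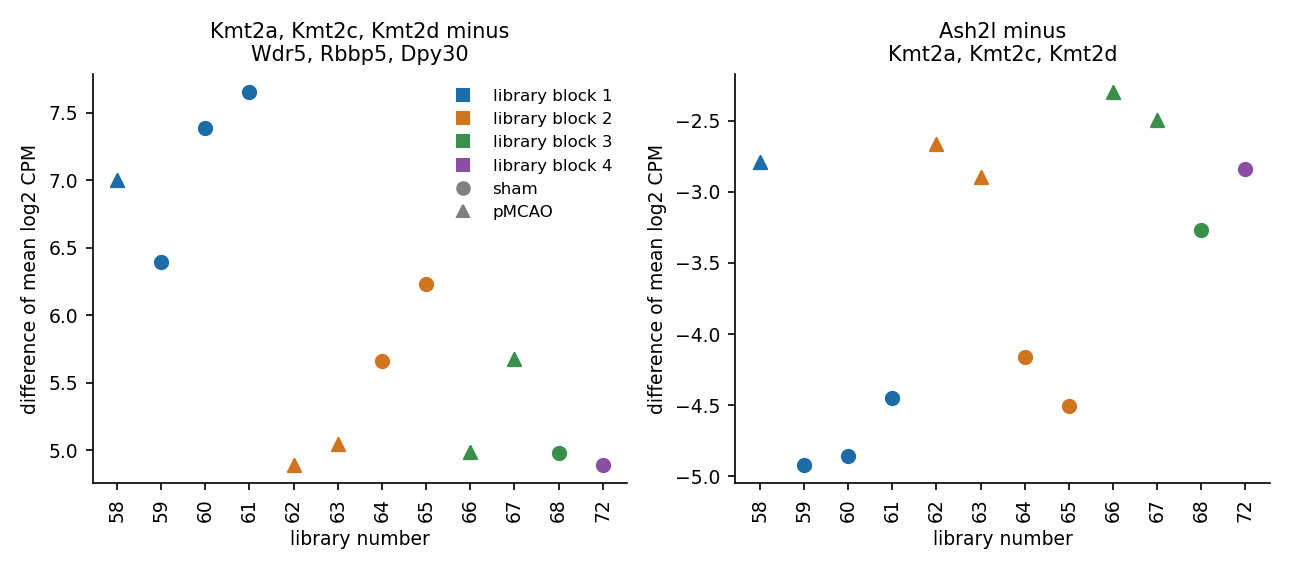
Differences of mean log2 CPM taken inside each of the 12 libraries, in order of library number, for Kmt2a, Kmt2c and Kmt2d minus Wdr5, Rbbp5 and Dpy30 (left) and for Ash2l minus Kmt2a, Kmt2c and Kmt2d (right). On the left the 4 libraries of block 1 lie at 6.40 or above and the rest at 6.23 or below, and on the right triangles (pMCAO) lie above circles (sham) of the same colour.

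Of its partners, Dpy30 varied most like Ash2l from library to library, but it stood only at rank 1444 of 14461 genes by this measure. Over the 12 libraries r with Ash2l was 0.48 for Dpy30, 0.17 for Men1, 0.02 for Wdr5, -0.17 for Setd1a, -0.30 for Kmt2c, -0.41 for Setd1b, -0.44 for Rbbp5, -0.46 for Kmt2a and -0.49 for Kmt2d. After centring on block means it was 0.38 for Dpy30 and -0.81 for Kmt2d. The 5 genes of the table most like Ash2l over the same libraries were Camk2g, a calcium and calmodulin-dependent kinase (r = 0.90), Gm8566 (0.89), RP23-479D21.3 (0.89), Pbld2 (0.88) and Smim22, a small membrane protein (0.87). The likeness uses the same libraries that chose Ash2l and is a description. Camk2g had 5.27 ± 2.19 CPM in sham and 8.32 ± 1.71 CPM in pMCAO mice, and Pbld2 had 39.3 ± 8.55 and 79.2 ± 28.9 CPM.

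The genes next to Ash2l on chromosome 8 were not called. Star, the cholesterol importer of steroid-making mitochondria, ends 13 bases away on the other strand and had a log2 difference of 0.21 (SE 0.39). Lsm1, a subunit of the complex that starts decapping of mRNA, had 0.33 (SE 0.33), Kcnu1, a potassium channel gene, had -0.36 (SE 0.41), and Hgsnat, a lysosomal acetyltransferase gene, had 0.37 (SE 0.24).

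The wider pathway was read from 6 further lists, of which 57 genes were tested. With library block, 0 were called higher and 1 lower, beside 0.138% and 0.187% of all genes, and the median log2 difference was -0.06. The 11 partners found in some of the COMPASS complexes and not in the shared core had a median of -0.16 and 0 calls. Of these, Hcfc2, a host cell factor of the KMT2A and KMT2B complexes, was at -0.43 (SE 0.21, adjusted p = 0.419), with 23.5 ± 8.16 CPM in sham and 15.2 ± 2.82 CPM in pMCAO mice. Kmt2b, the paralog of Kmt2a, was at -0.34 (SE 0.17, adjusted p = 0.407).

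Of 5 other genes credited with H3K4 methylation, 0 were called. Smyd2 had the largest value, 2.55 (SE 1.06, adjusted p = 0.326), from near the counting limit: it was at 0 in 4 of 7 sham libraries and at most at 2.00 CPM in any library. Without sham 6 it was at 0.68. Smyd3 was at 0.63 (SE 0.38, adjusted p = 0.53), at 0.018 with edgeR and at 0.24 without sham 5. Of 7 demethylases that act on H3K4 or belong with them, 0 were called. The CpG-island binder Kdm2b was at 0.52 (SE 0.71, adjusted p = 0.808) with about 2 CPM in both groups (2.01 ± 1.70 and 2.08 ± 0.91), and the Y-linked Kdm5d was at -0.34 (SE 0.14, adjusted p = 0.328).

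The one call among the lists was Cdc73, which encodes parafibromin of the PAF1 complex. PAF1 travels with RNA polymerase II and promotes ubiquitination of histone H2B, a step that precedes H3K4 methylation by COMPASS. Cdc73 had 216, 101, 91.0, 83.2, 118, 96.3 and 50.3 CPM in sham 1 to 7 and 47.3, 41.8, 59.2, 44.6 and 32.9 CPM in pMCAO 1 to 5. Sham 7 alone lies inside the pMCAO range, the same library that reached it for Ash2l. The level fell by 1.25 on the log2 scale (SE 0.22, adjusted p = 0.0219, limma-voom with library block), and within blocks 1, 2 and 3 the difference was -1.41, -0.99 and -1.33. It was on the list of changed genes that the study drew from these same samples, so it is no independent evidence. The call was lost with group alone (-1.17, adjusted p = 0.245), with edgeR (-1.24, adjusted p = 0.0603), with sample quality weights (-1.14), with library totals (-1.08), without block 1 (-1.14), and without sham 6 (-1.20), pMCAO 1 (-1.16), pMCAO 4 (-1.28) or pMCAO 5 (-1.18). The other 10 genes of this list were not called, and its median was 0.00. Its exons overlap those of B3galt2.

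Of 12 readers of methylated H3K4, 0 were called, with a median of -0.10. The PHD-finger genes Ing3 and Ing4 had the largest values, 0.60 (SE 0.34, adjusted p = 0.489) and -0.42 (SE 0.21, adjusted p = 0.432). Without sham 6 they were at 0.089 and -0.23, and with a replicate block Ing3 was at 0.025. Polycomb repressive complex 2 (PRC2) writes the opposing mark on lysine 27, and of the 11 tested genes on a list of PRC2 genes and Kdm6b, a demethylase that removes this mark, 0 were called, with a median of 0.02. The alternative PRC2 catalytic subunit Ezh1 was at -0.63 (SE 0.19, adjusted p = 0.172), from 46.9 ± 16.3 CPM in sham to 29.8 ± 2.39 CPM in pMCAO mice, and the histone chaperone Rbbp7 was at 0.55 (SE 0.25, adjusted p = 0.363). Over the 57 genes, 3 had an unadjusted p under 0.05 upward and 5 downward, 8 in all beside 12.7% of all genes; edgeR called 0 of the 57 and DESeq2 called 1, Cdc73.

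**Figure D5:**
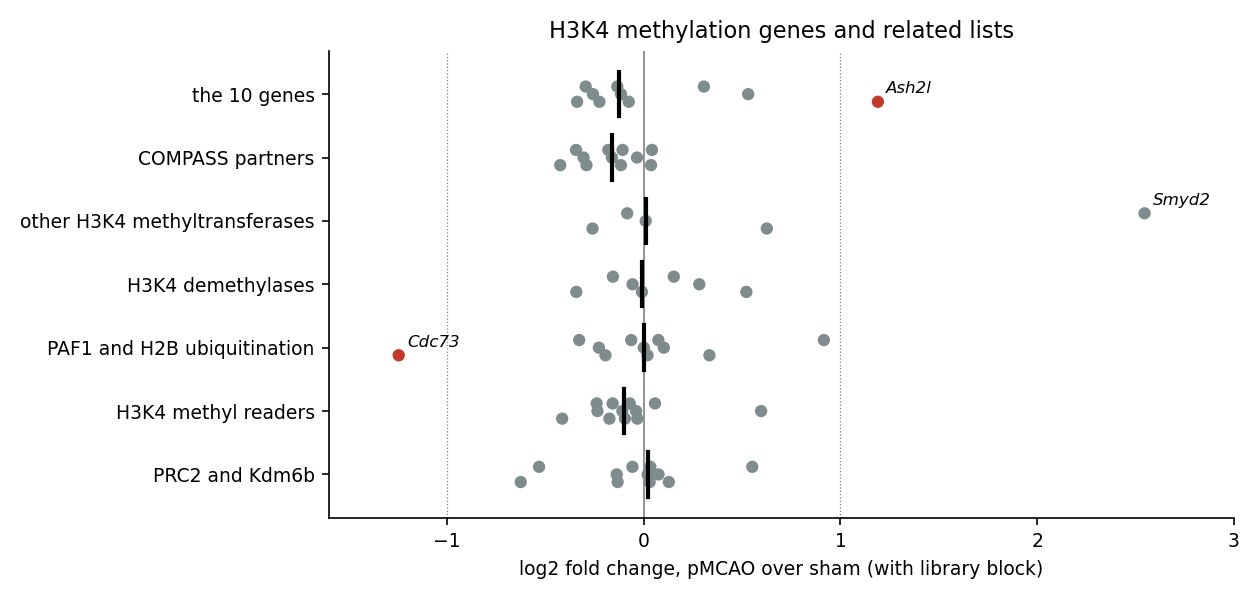
log2 fold change of pMCAO over sham with library block for each tested gene of the 10 and of the 6 further lists, 1 point per gene, with red for genes past the call rule, a black bar for each list's median and dotted lines at 1 in either direction. Ash2l and Cdc73 are the 2 points called, on opposite sides, and Smyd2 is far to the right at low counts.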

How the data were processed

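The authors sorted EpCAM+ cells, removed ribosomal RNA by cleavage, ran paired-end sequencing, and used STAR on GRCm38 and then featureCounts per gene; the strand setting is not given in the sources used here. The deposited counts are whole reads per gene, and the deposited CPM columns are those counts scaled to each library's total. The authors' log2 columns hold their fold change and mean expression, and their p-value columns the limma p-value and false discovery rate; none of these columns entered a fit here.

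Counts were used as deposited. filterByExpr (minimum count 10) left 14462 of 15855 genes, and limma-voom with TMM factors was fitted on group and library block (limma 3.58.1, edgeR 4.0.16, DESeq2 1.42.0, R 4.3.3), with Benjamini-Hochberg adjustment over all genes tested. The authors corrected for collection day, which the labels do not give; blocks of library numbers stood in for it. Their split points came from an earlier analysis that had matched them to the authors' fit, so the authors' results bear on this model, and whether a block is a day is not known. P-values measure the spread between the libraries given. The sham contrast was fitted on 7 libraries and 13498 genes. Log2 CPM for correlations and for differences within libraries or blocks used a prior count of 2. Promoters came from RefSeq and lengths from GENCODE.

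The 10 genes and all lists were chosen with earlier results of these data known. Genes named were the 10, of each further list those called or otherwise the 2 with the largest absolute log2 difference, the 5 most like Ash2l, and the 2 nearest genes of the table on each side of it. The fits were tried on simulated counts in which only genes with many reads were changed. That trial does not bear on genes at low counts or on the split points of the blocks. Replicate numbers did not pair the groups throughout, and the main fit did not use them.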

Additional observations from a re-analysis of the deposited data

Results flagged for a closer look

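Within a group, a level was looked at again where a single library stood far from the others relative to the range of the group (Dixon's criterion). In 20 groups, the 10 genes in each of sham and pMCAO mice, 1 such value was found, and chance alone gives about 1. Dpy30 in pMCAO 1 had a log2 CPM of -0.065, against 2.90 ± 0.25 (SD, n = 4) in the other pMCAO libraries, which ranged from 2.54 to 3.11. pMCAO 1 is the one pMCAO library of block 1, and sham 1, sham 2 and sham 3 of that block were at 2.71, 0.83 and 0.483 CPM of Dpy30, against 0.854 CPM in pMCAO 1. It rests on 10 reads.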

How the results depend on the processing

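In the stroke contrast, 435 of 462 values over 21 named genes and 22 alternatives kept their direction and side of the call rule, and in the sham contrast 113 of 130. The number of genes called was 47, and it was 0 with group alone, 21 with edgeR, 97 with DESeq2, 29 with sample quality weights, 0 without block 1, and 4 to 86 when 1 library was left out, the fewest without sham 6 and 6 without pMCAO 1. Of the 10 genes, 1 was called, and 0 with group alone, without block 1, and 0 to 1 with 1 library left out. Of the list genes 1 was called, and 0 with group alone, edgeR, quality weights, library totals or without block 1, and 0 to 1 with 1 library left out. In the sham contrast 2 of the 10 were called, 0 with library totals, 0 with totals lacking mitochondrial ribosomal RNA, and 0 to 2 with 1 library left out, Setd1a (-1.72, adjusted p = 0.0491) taking the place of Kmt2d without sham 7. Ash2l stayed between 1.08 and 1.47 under all 22 alternatives. Of the calls over all genes, 42.6% were upward with TMM factors and 65.6% with library totals in the stroke contrast, and 65.5%, 99.8% with totals and 94.5% without mitochondrial ribosomal RNA in the sham contrast.

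Small values changed sign. Men1 was at 0.15 with group alone, 0.17 with edgeR, 0.15 with DESeq2, 0.067 with library totals, and between -0.32 and 0.43 with 1 library left out (above 0 without sham 6 or pMCAO 5). Setd1b was at 0.049 with library totals, 0.036 without block 1, and between -0.24 and 0.023 with 1 library left out (above 0 without pMCAO 1 or pMCAO 3). Kmt2c was at 0.023 with library totals. With 1 library left out, Setd1a ranged from -0.10 (without sham 6) to 0.78 and Kdm2b from -0.061 (without sham 5) to 1.30. In the sham contrast Rbbp5 was at 0.49 with library totals and between -0.59 and 0.053 (without sham 1) with 1 library left out, Kmt2a at 0.13 and Setd1b at 0.45 with library totals. The cause was not tested. The 2 scalings by totals were chosen after seeing the data.

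Libraries with the same replicate number did not deviate together throughout (correlations of 0.40, -0.24, -0.16, 0.16 and 0.08 for replicates 1 to 5). The pair at 0.40, sham 1 and pMCAO 1, is of block 1. In replicates 1 and 4 the pMCAO library was closest to the sham library of its own number among sham 1 to 5, and in the others it was not. With a replicate block in place of the library block, 243 genes, 1 of the 10 and 1 list gene were called, Setd1a was at -0.47 and Men1 at 0.31. At the lowest depth, Wdr5, Dpy30, Setd1a and Men1 had between 2 and 80 reads in sham 2 and sham 3, which limits them most.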
